A study of Mus musculus with 2 samples.

Results

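The 8 genes described here encode proteins of central nervous system myelin and of the oligodendrocytes that make it. They are Mog, Cldn11, Mal, Opalin and Tspan2, whose proteins sit in or on the membrane, and Cnp, Ermn and Aspa, whose proteins are found in the cytoplasm. They were taken by name from a list of 31053 genes, and all 8 had a row in both libraries. Single cell RNA-seq (scRNA-seq) was done on 2 libraries, each pooled from 5 optic nerves of Wildtype 129S1/SvlmJ mice of both sexes. The mice were 10 weeks old by the series' design, although the sample labels give 56 days. In the injured library the nerves had been crushed at 8 weeks of age (optic nerve crush, ONC) and the tissue around the crush was taken 2 weeks later. The other library came from uninjured nerves and was assigned by its title, because its treatment label also names 2 weeks after crush. In both, the barcodes typed by the authors as oligodendrocyte precursor cell (OPC), newly formed oligodendrocyte (NFO) or oligodendrocyte were used, and a barcode stands for the RNA of about 1 cell. With 1 library per condition the differences between conditions have no replicate check, no p-values were computed, and every interval is a 95% interval for counting error only.

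Oligodendrocytes wrap axons in a membrane that is largely packed into compact myelin, with non-compact stretches of cytoplasm at its inner and outer edges and beside the node of Ranvier. OPCs divide and lack myelin, NFOs begin to switch on the myelin genes, and oligodendrocytes carry the complete set. Mog is an immunoglobulin-type protein on the outer surface of the sheath and a known target of autoantibodies. Cldn11 is the claudin of the tight junctions between myelin layers, Mal is a raft proteolipid that takes part in membrane sorting, Opalin is a glycoprotein of the oligodendrocyte membrane, and Tspan2 is a tetraspanin. Cnp is a cyclic nucleotide phosphodiesterase that marks non-compact myelin, Ermn binds actin, and Aspa is the enzyme that frees acetate from N-acetylaspartate. Aspa is thus an enzyme of the cell and not a structural protein of the sheath, although it is grouped with the others here.

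The uninjured library held 959 barcodes with 4414834 UMIs (unique molecular identifiers, 1 for each captured RNA molecule) and a median of 2782 UMIs per barcode, and the injured library held 410 barcodes with 2771797 UMIs and a median of 1304.5. The libraries shared 0 barcode sequences. Uninjured nerves gave 58 OPCs, 44 NFOs and 857 oligodendrocytes, and injured nerves gave 17, 100 and 293. The types carried their markers: 5 of 5 OPC markers were found in at least 25% of OPCs, 6 of 6 NFO markers in at least 25% of NFOs and 5 of 5 oligodendrocyte markers in at least 25% of oligodendrocytes, in both libraries. The authors used Pdgfra, Fyn, Mag and Mbp, which are among these markers, to name the types, so this was partly given in advance. The markers were also shared between types. In both libraries 4 of 6 NFO markers passed 25% of OPCs. Of the 5 oligodendrocyte markers, 4 passed it in NFOs and 3 in OPCs. Malat1, a long noncoding RNA kept in the nucleus, made up less than 0.5% of UMIs in 5.6% of uninjured and 45.4% of injured oligodendrocytes, and in 63.6% of uninjured and 77% of injured NFOs. The summed level of 8 macrophage and microglia markers was 18.1 CPM (UMIs of a gene per 1000000 UMIs of the class) in uninjured and 226 CPM in injured oligodendrocytes, and 21.2 and 509 CPM in the NFOs. Each was found in fewer than 25% of barcodes in uninjured nerves, while 3 of 8 passed that share in injured oligodendrocytes and 2 of 8 in injured NFOs. The OPC markers summed to 2911 CPM in uninjured and 1697 CPM in injured NFOs, and the NFO markers to 4940 and 7495 CPM. In NFOs with Malat1 below 0.5%, 3 of 6 NFO markers passed 25% of uninjured barcodes and 4 of 6 passed it in injured ones. All 6 summed to 2174 and 5817 CPM there, beside 1926 CPM in uninjured OPCs. The part of these differences in the values below was not tested.

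In the GRCm38 mouse genome (mm10, GENCODE vM21 annotation, counted from 1) Mog (ENSMUSG00000076439) lies at chr17:37010743-37023398 on the minus strand and Cldn11 (ENSMUSG00000037625) at chr3:31149920-31164324 on the plus strand. Mal (ENSMUSG00000027375) lies at chr2:127633226-127656695 and Opalin (ENSMUSG00000050121) at chr19:41061710-41077113, both on the minus strand. Tspan2 (ENSMUSG00000027858) lies at chr3:102734529-102801513 on the plus strand. Cnp (ENSMUSG00000006782) lies at chr11:100574904-100591729 on the plus strand, Ermn (ENSMUSG00000026830) at chr2:58045113-58052864 and Aspa (ENSMUSG00000020774) at chr11:73304992-73329596, both on the minus strand. The 3′ part of Cnp overlaps Dnajc7 on the opposite strand over 8912 bases, and Dnajc7 had 885 UMIs in both libraries together. Ermn overlaps Galnt5 (5 UMIs) and Tspan2 overlaps Tspan2os (19 UMIs), Tshb (8 UMIs) and Gm42681 (1 UMI), in each case on the opposite strand. Mog overlaps the small RNA gene Gm22388 on the opposite strand. Whether the counting used strand is not given in the sources used here.

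In the results below, Cnp and Cldn11 had more UMIs in injured than in uninjured NFOs, Opalin did so mainly through 2 barcodes, and Mal and Ermn were close to absent from injured NFOs. The promoters of these 5 genes are shown side by side. The sequences are RefSeq windows on GRCm38.p6, of 250 bases before and 50 bases after the annotated start, read 5′ to 3′ on the strand of the gene. All 8 genes had a window in that table, 9 windows in total because Tspan2 has 2. The search covered 4 sets of letters on both strands, and the capitals mark every match. They were CTGGCAC (the letters of a site for Myrf, the transcription factor of myelin genes), ACAAAG (SOX factors), CAGCTG (an E box) and TATAAA, a core promoter element.
Cnp, chr11:100574689-100574988: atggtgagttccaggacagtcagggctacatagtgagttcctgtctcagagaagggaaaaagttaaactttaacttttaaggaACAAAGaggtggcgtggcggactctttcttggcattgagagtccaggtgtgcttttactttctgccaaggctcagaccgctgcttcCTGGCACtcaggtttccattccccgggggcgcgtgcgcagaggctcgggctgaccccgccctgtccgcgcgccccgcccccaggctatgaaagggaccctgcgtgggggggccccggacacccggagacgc
Opalin, chr19:41077064-41077363: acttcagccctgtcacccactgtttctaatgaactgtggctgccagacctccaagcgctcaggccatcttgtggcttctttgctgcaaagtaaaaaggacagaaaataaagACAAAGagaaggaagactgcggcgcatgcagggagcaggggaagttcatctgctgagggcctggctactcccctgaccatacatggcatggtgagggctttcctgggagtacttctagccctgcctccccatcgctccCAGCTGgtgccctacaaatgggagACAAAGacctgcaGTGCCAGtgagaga
Cldn11, chr3:31149670-31149969: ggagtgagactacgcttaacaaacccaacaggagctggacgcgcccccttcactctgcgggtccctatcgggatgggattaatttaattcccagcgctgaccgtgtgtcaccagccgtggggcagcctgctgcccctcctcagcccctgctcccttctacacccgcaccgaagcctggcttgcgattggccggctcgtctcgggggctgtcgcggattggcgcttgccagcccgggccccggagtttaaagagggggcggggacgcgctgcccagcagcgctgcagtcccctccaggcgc
Mal, chr2:127656646-127656945: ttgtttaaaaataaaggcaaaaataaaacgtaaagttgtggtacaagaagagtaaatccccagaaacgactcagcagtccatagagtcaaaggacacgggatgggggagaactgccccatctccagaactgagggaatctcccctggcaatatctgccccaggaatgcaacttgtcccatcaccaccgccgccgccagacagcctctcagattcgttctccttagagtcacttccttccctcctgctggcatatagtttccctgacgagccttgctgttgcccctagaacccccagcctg
Ermn, chr2:58052815-58053114: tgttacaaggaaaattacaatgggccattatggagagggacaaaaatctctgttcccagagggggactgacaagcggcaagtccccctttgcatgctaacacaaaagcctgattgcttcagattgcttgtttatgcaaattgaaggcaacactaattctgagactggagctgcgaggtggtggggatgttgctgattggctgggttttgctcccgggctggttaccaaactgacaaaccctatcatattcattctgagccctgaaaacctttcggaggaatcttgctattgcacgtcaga
The Cnp window held CTGGCAC once, 81 bases before the start, and ACAAAG once, 167 bases before it. The Opalin window held CTGGCAC once on the opposite strand, where the letters print as GTGCCAG. It also held the SOX letters at 2 places and the E box once. The Mal, Ermn, Cldn11 and Mog windows held none of the 4. Of 32851 promoter windows of this length, 5.01% held CTGGCAC, 18.7% ACAAAG, 16.3% CAGCTG and 13.6% TATAAA. The Aspa window held TATAAA at 3 places and CAGCTG once, and 1 of the 2 Tspan2 windows held ACAAAG. These matches describe the letters of these windows and are not evidence that a factor binds there.

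Across the stages the 8 genes together went from 829 CPM in uninjured OPCs to 3538 CPM in uninjured NFOs and 25730 CPM in uninjured oligodendrocytes, and in injured nerves from 714 to 8131 and 21753 CPM. The UMIs mark 3′ ends, so their number does not grow with transcript length, but capture can still differ between genes. In uninjured oligodendrocytes the order was Mal (7313 CPM), Cnp (5266), Cldn11 (4566), Mog (3208), Ermn (1943), Tspan2 (1667), Opalin (1112) and Aspa (654), and neighbours in this order had intervals that did not overlap. In injured oligodendrocytes it was Mal (4944), Cldn11 (4689), Cnp (4250), Ermn (2412), Mog (2180), Tspan2 (2113), Opalin (701) and Aspa (465), and only Mog (2120 to 2241) and Tspan2 (2054 to 2173) were neighbours with overlapping intervals. On the natural log scale of the deposited values (NE, the normalized expression), the mean ± SD over barcodes of Mal was 3.79 ± 1.08 in the 857 uninjured and 2.56 ± 1.68 in the 293 injured oligodendrocytes, where the SD is the spread between barcodes of 1 library.

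**Figure D1:**
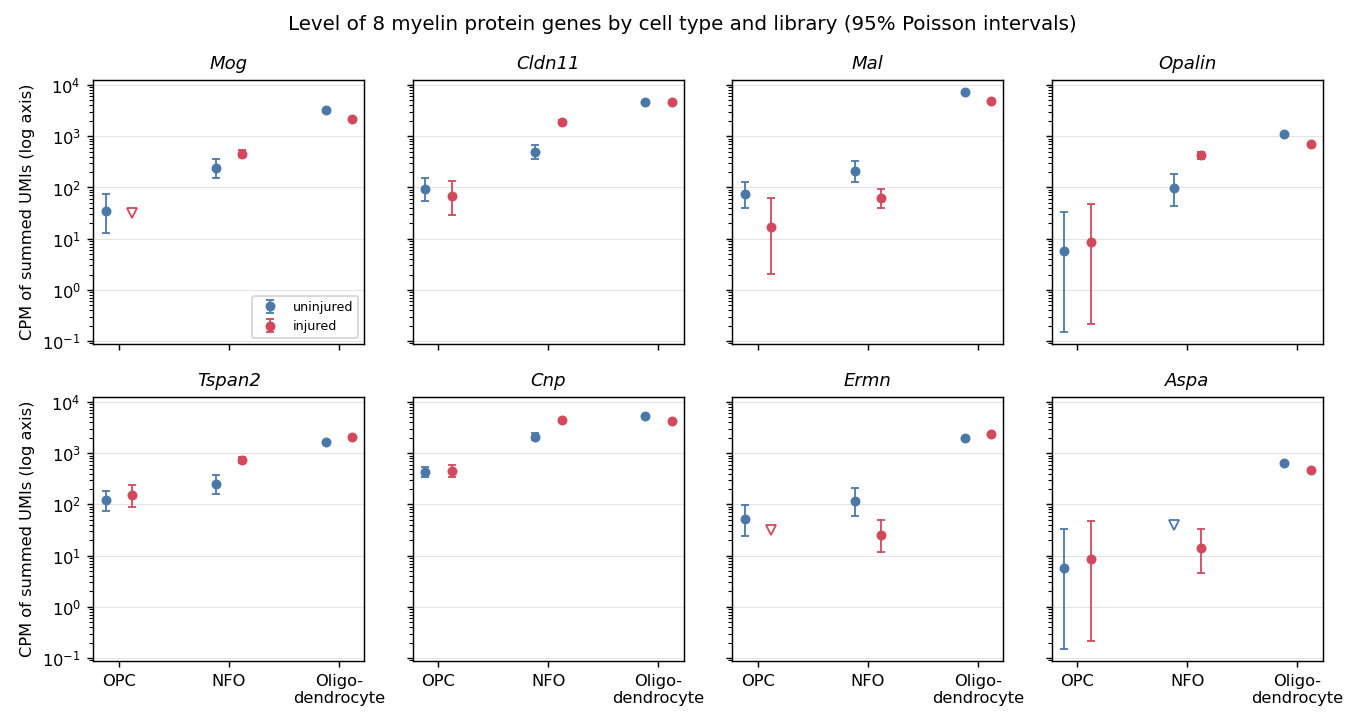
Level of each gene in CPM of summed UMIs (log axis) in OPCs, NFOs and oligodendrocytes of the uninjured (blue) and injured (red) library. Bars are 95% Poisson intervals, and open triangles mark the upper limit of a class with 0 UMIs. Mal and Ermn in injured NFOs lie below their uninjured values, at 62.5 and 25.6 CPM. Over all depths together, Cnp in injured NFOs (4471 CPM) is as high as in injured oligodendrocytes (4250 CPM).

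Cnp was the most abundant of the 8 genes at the early stages and gave way to Mal in oligodendrocytes. It held 52.8% of the 8 genes' UMIs in uninjured OPCs, 59.8% in uninjured NFOs and 20.5% in uninjured oligodendrocytes. In injured nerves the shares were 64.3%, 55% and 19.5%. Mal took 6.01% of these UMIs in uninjured NFOs (interval 3.71% to 9.12%) and 28.4% in uninjured oligodendrocytes. In injured nerves Mal took 0.769% of them in NFOs (0.483% to 1.16%) and 22.7% in oligodendrocytes. Ermn held 3.3% in uninjured and 0.315% in injured NFOs against 7.55% and 11.1% in the oligodendrocytes.

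The genes differed in how far the NFO level was below that of oligodendrocytes of the same library. In uninjured nerves the NFO level was 0.401 of the oligodendrocyte level for Cnp (interval 0.347 to 0.462), the highest of the 8. It was 0.153 for Tspan2, 0.109 for Cldn11, 0.086 for Opalin and 0.0762 for Mog, whose neighbouring intervals overlap. It was 0.0601 for Ermn and 0.0291 for Mal, and Aspa had 0 UMIs in 44 uninjured NFOs, which allows up to 0.0599 by the interval of the ratio. All 8 genes together stood at 0.137 (0.123 to 0.153), beside a median of 0.999 over the 7651 genes with at least 50 UMIs in both types together.

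In injured nerves the spread between the genes was wider. Over all depths together, Cnp in NFOs was level with oligodendrocytes, at 1.05 (0.997 to 1.11). At like depth, Cnp in injured NFOs and oligodendrocytes was at 4551 and 1631 CPM under 1000 UMIs. It was at 3334 and 2248 CPM from 1000 to under 3000 UMIs and at 5531 and 2640 CPM from 3000 to under 10000. Only at 10000 or more was it level, at 4514 and 4600 CPM. Over all depths, Opalin stood at 0.609, Cldn11 at 0.412, Tspan2 at 0.352 and Mog at 0.21. Of the 150 Opalin UMIs in injured NFOs, 55 and 47 came from 2 barcodes. The place of Opalin above Cldn11 and Tspan2 rests on that pair. Aspa (0.0305), Mal (0.0126, 0.00792 to 0.0192) and Ermn (0.0106, 0.00485 to 0.0201) stayed far below. All 8 together stood at 0.374 (0.36 to 0.388), beside a median of 0.998 over 6563 genes. The intervals of Mal and Ermn overlap, so their order was not resolved. Among the other myelin genes, Mbp, the basic protein of compact myelin, had an NFO level of 0.557 of that of oligodendrocytes in uninjured and 0.527 in injured nerves. Mag, an adhesion protein of the inner myelin edge, stood at 0.208 and 0.287, and Mobp, a basic protein of compact myelin, at 0.266 and 0.148.

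**Figure D2:**
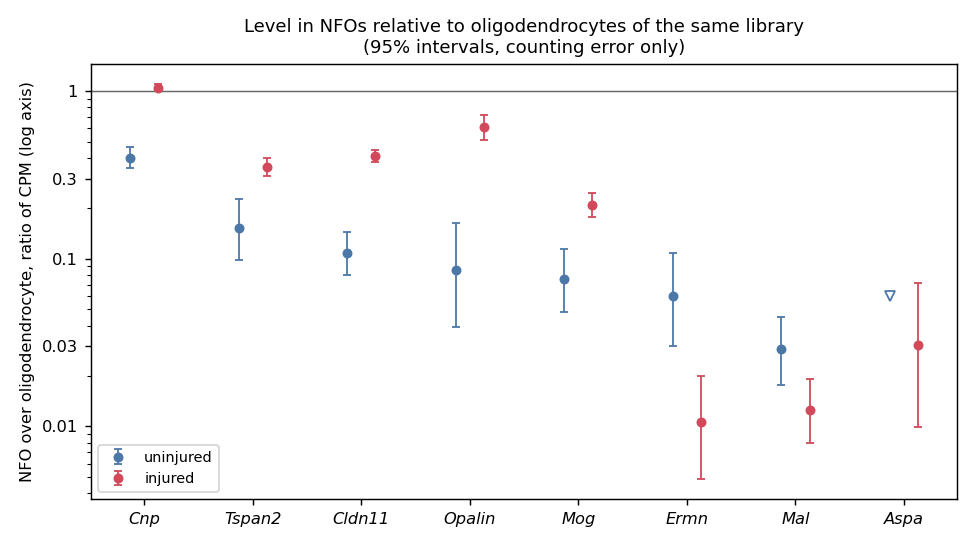
NFO over oligodendrocyte level (ratio of CPM, log axis) of each gene within the uninjured (blue) and injured (red) library, with 95% intervals. The open triangle is the upper limit for Aspa, which had 0 UMIs in uninjured NFOs. Cnp reaches 1.05 in injured nerves, and Mal and Ermn lie at 0.0126 and 0.0106.

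Injured NFOs held more of the 8 genes' RNA together than uninjured NFOs, at 8131 against 3538 CPM, a ratio of 2.3 (2.05 to 2.58), and single genes went in both directions. Cnp had 199 UMIs in 44 uninjured NFOs (2114 CPM) and 1573 UMIs in 100 injured NFOs (4471 CPM), a ratio of 2.11 (1.82 to 2.46). Cldn11 went from 499 to 1930 CPM, a ratio of 3.86 (2.87 to 5.31). Tspan2 went from 255 to 745 CPM, a ratio of 2.92 (1.92 to 4.64). The intervals of the uninjured and injured level did not overlap for these 3 genes.

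The NFO differences were larger in deeper barcodes. Under 1000 UMIs, 14 uninjured and 36 injured NFOs, the 8 genes together were at 7292 and 6846 CPM, a ratio of 0.939 (0.698 to 1.28). From 1000 to under 3000 UMIs, 22 and 43 NFOs, the ratio was 1.29 (1.07 to 1.56). It was 3.97 (3.04 to 5.25) from 3000 to under 10000 UMIs, 6 and 13 NFOs, and 3.98 (3.03 to 5.34) at 10000 or more, 2 and 8 NFOs. In the same order of depth, the median ratios over genes with at least 50 UMIs were 1.19, 1.02, 2.07 and 1.08. They were taken over 79, 297, 266 and 780 genes. The 8 injured NFOs of 10000 or more UMIs held 1710 of the 2861 UMIs of the 8 genes. They also held 193633 of the 351851 UMIs of all genes in injured NFOs. The shallowest NFOs therefore showed no difference beyond counting error in the sum. Few barcodes carried most of the injured UMIs, for the 8 genes and for all genes alike. Cnp was at 1.36 (0.894 to 2.13) under 1000 UMIs, 1.23 (0.963 to 1.58) in the next range, and 4.01 and 2.77 in the deeper ones. Cldn11 was at 0.868 (0.389 to 2.12), 2.04 (1.33 to 3.23), 5.79 and 18. The NFOs of at least 10000 UMIs had little Malat1 in 0% of both libraries, against 85.7% and 91.7% of those under 1000 UMIs. From 1000 to under 3000 UMIs the shares were 72.7% and 81.4%. From 3000 to under 10000 UMIs the libraries differed, at 0% of uninjured and 69.2% of injured NFOs. The part of this in the ratios was not tested.

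Mog in NFOs went from 244 CPM (23 UMIs) to 458 CPM (161 UMIs), a ratio of 1.87 (1.21 to 3.04), but turned to 0.546 (0.221 to 1.39) when every barcode was thinned to 500 UMIs and to 0.674 when each barcode had equal weight. Mog UMIs were found in 29.5% of uninjured and 30% of injured NFOs. The 2 injured NFOs with most Mog UMIs held 30.4% of them.

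Opalin in NFOs went from 95.6 CPM (9 UMIs) to 426 CPM (150 UMIs), a ratio of 4.46 (2.29 to 9.94). Of these 150 UMIs, 102 came from 2 barcodes of 29396 and 29344 UMIs. Opalin UMIs were present in 11.4% of the uninjured and 16% of the injured NFOs. The pair also held 173 and 196 UMIs of Cnp, and 125 and 134 of Cldn11, but 0 and 0 of Ermn and 4 and 0 of Mal. Neither was marked as a doublet. Without the pair, a comparison added after seeing the data, the ratio was 1.71 for Opalin (0.831 to 3.97), 2.87 for Cldn11 (2.12 to 3.97) and 1.91 for the 8 genes together (1.7 to 2.15).

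Summed over all depths, Mal and Ermn went the other way. Mal had 20 UMIs in uninjured NFOs (212 CPM) and 22 in injured NFOs (62.5 CPM), a ratio of 0.294 (0.153 to 0.568). Ermn had 11 UMIs in uninjured NFOs (117 CPM) and 9 in injured NFOs (25.6 CPM), a ratio of 0.219 (0.0802 to 0.581). The intervals of the uninjured and injured level did not overlap for either gene. By depth, Mal was at 0.0723 (0.0076 to 0.349) under 1000 UMIs and 0.306 (0.0475 to 1.57) in the next range. It was at 0.771 (0.261 to 2.54) from 3000 to under 10000 UMIs, and had 0 uninjured and 6 injured UMIs at 10000 or more. Ermn was at 0.108 (0.0107 to 0.607) and 0.51 (0.0683 to 3.81) in the same order, then had 0 and 4, and 2 and 0 UMIs. For Mal, only the range under 1000 UMIs had an interval that excluded 1. In NFOs without low Malat1, 16 uninjured and 23 injured, the ratio was 0.558 for Mal (0.225 to 1.51) and 0.419 for Ermn (0.0993 to 2.02), and both intervals include 1. In OPCs Mal was also lower in injured nerves, from 75.9 to 17 CPM (0.224, 0.0246 to 0.99), and Ermn went from 9 to 0 UMIs, an interval of the ratio up to 0.738. Mal UMIs were found in 27.3% of uninjured NFOs (15% to 42.8%) and in 10% of injured NFOs (4.9% to 17.6%).

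OPCs, which do not make myelin, were used as a reference for low levels. Whether their UMIs of these genes came from RNA free in the droplets or from the OPCs was not tested. Mal UMIs were found in 19% of uninjured OPCs (median depth 2290 UMIs, interval 9.87% to 31.4%) and 11.8% of injured OPCs (median 4120 UMIs, 1.46% to 36.4%), beside median depths of 1259.5 and 1258.5 UMIs in the NFOs. The shares in NFOs, 27.3% and 10%, were thus not above those in the deeper OPCs beyond counting error. In CPM, which allows for depth, OPCs held 0.357 of the Mal level of NFOs in uninjured nerves (0.163 to 0.754) and 0.272 in injured nerves (0.031 to 1.11). Ermn UMIs were present in 13.8% of the uninjured OPCs, 0 of 17 injured OPCs and 6% of the injured NFOs, whose intervals (up to 19.5% for the injured OPCs) overlap. Aspa had 0 UMIs in uninjured NFOs and 5 in injured NFOs, all from 2 barcodes, and is given without a fold. Cldn11, by contrast, was found in 61% of injured NFOs and in 17.6% of injured OPCs.

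Genes found together were also counted in single barcodes. Of the 79 injured NFOs with a Cnp UMI, 54 also had Cldn11, 42 Tspan2, 28 Mog, 14 Opalin, 9 Mal, 4 Ermn and 1 Aspa. Of the 37 uninjured NFOs with a Cnp UMI, 19 had Cldn11, 12 each had Tspan2, Mog and Mal, 7 had Ermn, 5 Opalin and 0 Aspa. Opalin was thus found in fewer of these barcodes than Cldn11 or Tspan2. Its injured NFO level relative to oligodendrocytes was above theirs, but this rested on the 2 barcodes with most Opalin UMIs.

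Over all genes with at least 50 summed UMIs in the NFOs, 27.8% of 1695 were at least 1.5-fold higher and 10.9% were at least 1.5-fold lower in injured nerves, with a median ratio of 1.15 (0.20 on the log2 scale). Of the 8 genes, 5 reached the 50 UMIs, and the 5 (Mog, Cnp, Cldn11, Opalin and Tspan2) were each at least 1.5-fold higher, while Mal, Ermn and Aspa had too few UMIs. A gene with few UMIs in the 44 uninjured barcodes can reach 50 through the injured library alone, so the count does not stand for all 8. Of 20 other myelin genes on the list, 15 reached 50 UMIs, 7 were at least 1.5-fold higher and 2 lower. Higher were Enpp6 (2.96) and Sirt2 (2.58) among others, and the lower were Mobp (0.385, 0.283 to 0.526) and Gpm6b (0.504). Mbp (0.982, 0.882 to 1.09) and Mag (1.22) were between.

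**Figure D3:**
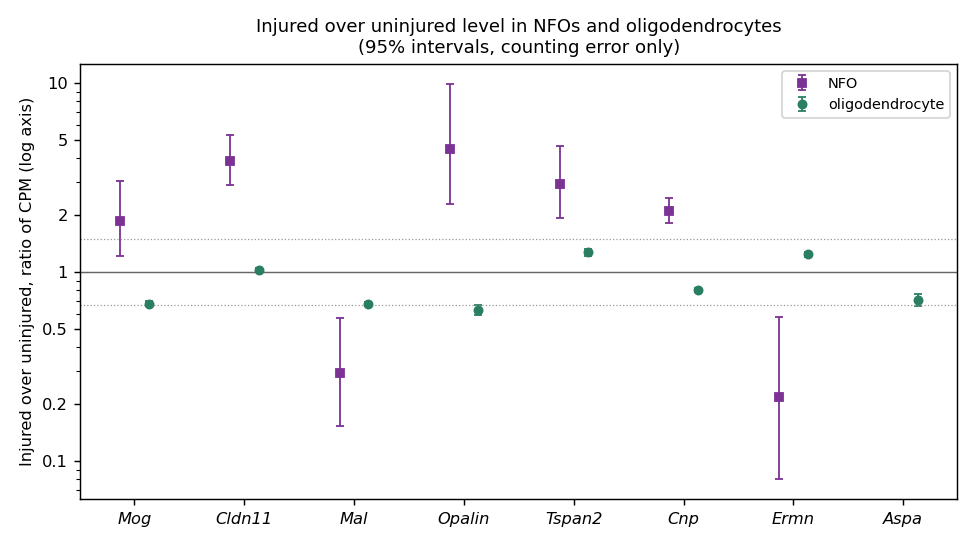
Injured over uninjured level (ratio of CPM, log axis) of each gene in NFOs (purple squares) and oligodendrocytes (green circles), with 95% intervals for counting error. The solid line is a ratio of 1 and the dotted lines are 1.5-fold higher and lower. In NFOs Cldn11 (3.86) and Opalin (4.46) lie above and Mal (0.294) and Ermn (0.219) below, while in oligodendrocytes the ratios lie between 0.63 and 1.27. Aspa has no NFO point because it had 0 UMIs in uninjured NFOs.

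In oligodendrocytes the 8 genes together were a little lower in injured nerves, at 21753 against 25730 CPM, a ratio of 0.845 (0.837 to 0.854), and the membrane proteins did not move as 1 group. Opalin went from 1112 to 701 CPM (0.63, 0.595 to 0.667), Mal from 7313 to 4944 (0.676, 0.662 to 0.691) and Mog from 3208 to 2180 (0.679, 0.658 to 0.702). Aspa went from 654 to 465 CPM (0.711, 0.662 to 0.763) and Cnp from 5266 to 4250 (0.807, 0.788 to 0.826). These 5 genes were lower under each of 10 alternative settings.

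The other 3 genes had ratios above 1 that turned under some settings. Ermn went from 1943 to 2412 CPM (1.24, 1.2 to 1.28), and was at 0.784 in barcodes under 8000 UMIs, a limit added after seeing the data. Tspan2 went from 1667 to 2113 CPM (1.27, 1.22 to 1.32), and was at 0.76 in barcodes thinned to 500 UMIs. Cldn11 was level, at 4566 and 4689 CPM (1.03, 1 to 1.05), and was at 0.681 in thinned barcodes. In these oligodendrocytes 15.6% of 8591 genes were at least 1.5-fold higher and 12% at least 1.5-fold lower in injured nerves, with a median ratio of 1.03. Of the 8 genes, all of which had at least 50 UMIs, 0 were at least 1.5-fold higher and 1 (Opalin) lower, with a median ratio of 0.759. Of the 20 other myelin genes, 1 was at least 1.5-fold higher (Sirt2, 1.58) and 3 lower, among them Omg (0.324) and Gpm6b (0.487). Mbp was at 1.04, Mag at 0.884 and Mobp at 0.693.

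Barcode depth moved with these values. In the barcodes of at least 10000 UMIs, 135 uninjured and 79 injured, the ratio of the 8 genes together was 0.849 (0.838 to 0.86), and 0% of them in both libraries had little Malat1. There Mal went from 7586 to 5266 CPM (0.694), Opalin from 1073 to 757 (0.706) and Mog from 3302 to 2376 (0.719). Cnp was at 0.76, Aspa at 0.812 (0.745 to 0.886) and Cldn11 at 0.99 (0.962 to 1.02), and Ermn was at 1.13 (1.09 to 1.18). Tspan2 was at 1.49, from 1492 to 2224 CPM (1.42 to 1.56), the highest of the 8. None of the 8 passed 1.5-fold, beside 22.8% of 7229 genes that were higher and 8.6% that were lower by that much. The macrophage and microglia markers summed to 14.3 CPM in the uninjured and 69.1 CPM in the injured barcodes of this depth.

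In oligodendrocyte barcodes under 1000 UMIs, 157 uninjured and 133 injured, the 8 genes together were at 15086 and 7422 CPM, a ratio of 0.492 (0.449 to 0.538). Aspa went from 729 CPM (80 UMIs) to 76.6 CPM (7 UMIs), a ratio of 0.105 (0.0409 to 0.227). Mog went from 2133 to 569 CPM (0.267), Opalin from 620 to 197 (0.318) and Cldn11 from 2890 to 952 (0.33, 0.257 to 0.419). Mal was at 0.512, Tspan2 at 0.553 and Cnp at 0.694 (0.563 to 0.852). Ermn was the exception, at 1021 and 1193 CPM and a ratio of 1.17 (0.89 to 1.54).

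At this depth 6 of the 8 genes were at least 1.5-fold lower and 0 higher, beside 42.3% of 522 genes that were lower and 41.2% that were higher. Of these barcodes 12.1% in the uninjured and 75.9% in the injured library had little Malat1, and the macrophage and microglia markers summed to 100 CPM in the uninjured and 2824 CPM in the injured ones, with 2 of 8 in at least 25% of the injured barcodes. Their part in the low values was not tested. Mbp went from 16608 to 70662 CPM (4.25, 4.04 to 4.48) and Mobp from 4430 to 10903 CPM (2.46), while Mag went from 2853 to 974 CPM (0.341). Mbp and Mobp RNAs are known to be carried to the myelin end of oligodendrocyte processes. Whether this had a part in the values was not tested. The 6 lower genes, and Cnp by less than 1.5-fold (0.694), moved in the direction of Mag and opposite to Mbp and Mobp. Ermn did neither. Of the 20 other myelin genes on the list, 17 had at least 50 UMIs at this depth. Of these, 9 were at least 1.5-fold lower and 4 higher, with Mbp and Mobp among the higher.

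Within each library the shallow barcodes also differed from the deep ones. In injured oligodendrocytes the level under 1000 UMIs was below that at 10000 UMIs or more for each of the 8 genes, with ratios from 0.152 for Aspa (0.0611 to 0.315) to 0.459 for Ermn (0.376 to 0.554). The median ratio of the 8 was 0.307 and that of 5577 genes was 0.519. In uninjured oligodendrocytes the median was 0.575 over the 8 and 0.976 over 5109 genes, with 0.389 for Cnp (0.342 to 0.44) and 0.444 for Ermn, but 1.09 for Tspan2 (0.929 to 1.27) and 1.18 for Aspa (0.928 to 1.48). Aspa therefore kept its level over depth in uninjured oligodendrocytes within counting error and not in injured ones. Injured oligodendrocytes with little Malat1 had 0.528 of the level of the other injured oligodendrocytes for the 8 genes together (0.501 to 0.556), beside a median of 0.527 over 5969 genes. In uninjured nerves the ratio of the 8 together was 1.03 (0.979 to 1.07), beside a median of 0.765 over 7526 genes.

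**Figure D4:**
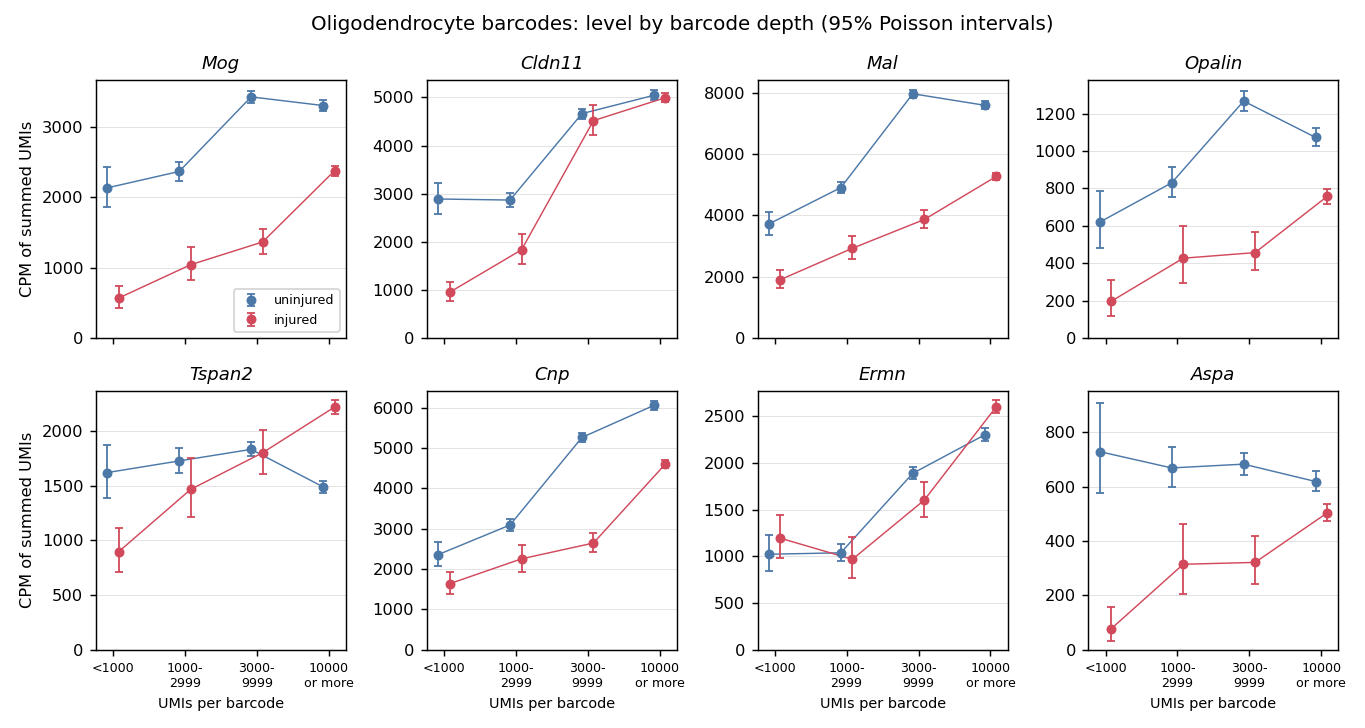
Level of each gene in CPM of summed UMIs in oligodendrocyte barcodes, by the number of UMIs per barcode, in the uninjured (blue) and injured (red) library, with 95% Poisson intervals. Each panel has its own axis from 0. Cldn11 is at 952 CPM in injured barcodes under 1000 UMIs and at 4996 CPM in those of 10000 or more, close to the uninjured 5045 CPM, while Tspan2 crosses from below to above the uninjured library.

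Between these depths the genes parted. In barcodes of 3000 to under 10000 UMIs, 301 uninjured and 35 injured, Cldn11 (0.969, 0.9 to 1.04) and Tspan2 (0.983, 0.873 to 1.1) were level and Ermn was at 0.848 (0.748 to 0.957). At the same depth Opalin was at 0.361, Mog at 0.399, Aspa at 0.471, Mal at 0.485 and Cnp at 0.502, lower than in the barcodes of 10000 or more. In barcodes of 1000 to under 3000 UMIs, 264 uninjured and 46 injured, the 8 genes together were at 0.642 (0.599 to 0.688), with the lowest value for Mog (0.441) and the highest for Ermn (0.933, 0.724 to 1.19).

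The number of the 8 genes found in a barcode followed both type and depth. The median was 8 in uninjured and 5 in injured oligodendrocytes, 2 in the NFOs of either library, and 1.5 and 2 in uninjured and injured OPCs. All 8 were found in 433 of 857 uninjured oligodendrocytes (50.5%, 47.1% to 53.9%) and in 92 of 293 injured ones (31.4%, 26.1% to 37.1%). None was found in 0 of 857 uninjured oligodendrocytes, which allows up to 0.43%, and in 22 of 293 injured ones (7.51%, 4.77% to 11.1%). Thinned to 500 UMIs, with 19 shallower uninjured oligodendrocytes left out, the barcodes with none were 0.597% (0.194% to 1.39%) of the uninjured and 10.9% (7.59% to 15.1%) of the injured oligodendrocytes. In thinned NFOs they were 26.2% (13.9% to 42%) and 23% (15.2% to 32.5%), and in thinned OPCs 66.1% and 76.5%. At one depth, injured oligodendrocytes thus included barcodes without the 8 genes that uninjured ones nearly lacked, and the NFOs of both libraries did not differ beyond counting error in this share.

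**Figure D5:**
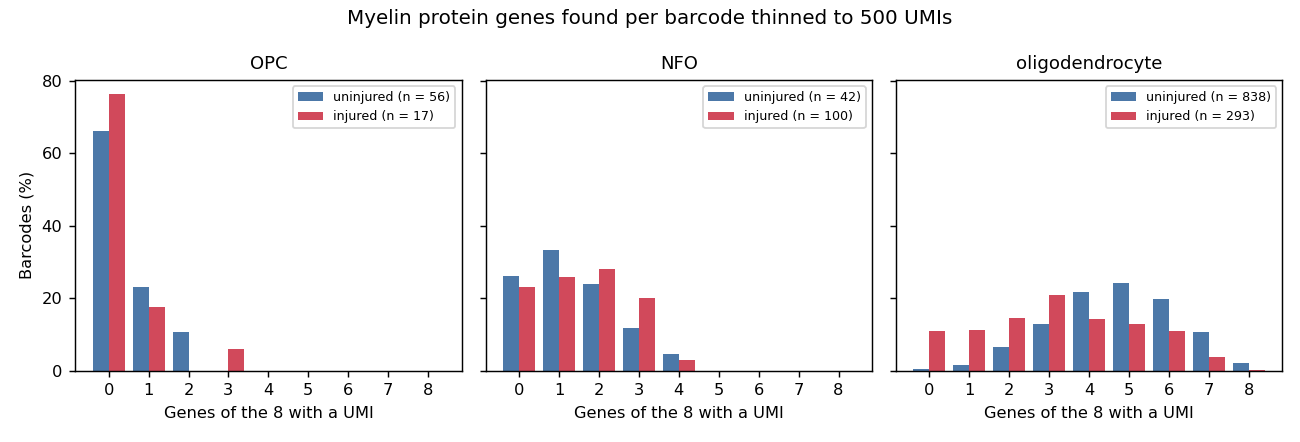
Percent of barcodes by the number of the 8 genes with at least 1 UMI, after every barcode was thinned to 500 UMIs, for OPCs, NFOs and oligodendrocytes of the uninjured (blue) and injured (red) library. The median is 5 in 838 uninjured and 3 in 293 injured oligodendrocytes, and the injured bars spread down to 0 genes (10.9%).

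Thinned detection was also counted gene by gene. Of thinned oligodendrocytes, Mal was found in 86.3% of the uninjured (83.8% to 88.5%) and 58.4% of the injured (52.5% to 64.1%), Mog in 71.2% and 40.3%, and Cldn11 in 79.1% and 56%. Aspa was found in 27.7% (24.7% to 30.8%) and 9.9% (6.73% to 13.9%). Ermn was found in 46.8% (43.4% to 50.2%) and 45.1% (39.3% to 50.9%), the pair of shares closest to each other among the 8.

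The levels of the 8 genes were compared over 16 classes of type, library and depth with at least 10 barcodes each, as a description, since these classes share libraries and depth. Of 5321 genes, those most like the sum of the 8 included Mag (Pearson's r of log2(CPM + 1) of 0.974), Gatm (0.925), which encodes an enzyme of creatine synthesis, Cryab (0.911), a small heat shock protein, and Bin1 (0.910), a membrane-bending protein. Among the 8, Mal was most like Ermn (0.979), Mog most like Cldn11 (0.913) and Cnp most like Opalin (0.862). Tspan2 was the least like gene for 6 of the 8, with its own highest value beside Aspa (0.665).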

How the data were processed

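The authors aligned the reads to mm10 and counted UMIs with Cell Ranger 1.3, kept barcodes with at least 200 genes, at most 20% mitochondrial reads and at most 150000 UMIs, drew equal numbers of cells per library, typed them, and normalized with Seurat 4.0.3. Deposited values (NE) are natural logs, taken by the authors after scaling each barcode to a total of 10000 UMIs and adding 1. After undoing the log, division by a barcode's lowest value gave back its UMIs, which were whole within 0.001 in 100% of barcodes. A table of both libraries together was not used here.

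UMIs were summed per class and given as CPM with exact Poisson intervals, shares of barcodes with exact binomial intervals, and ratios of CPM with exact conditional intervals. The steps were tested on simulated counts that varied by counting error alone. That test therefore does not cover UMIs clustered in a few barcodes. Genes with at least 50 summed UMIs entered the counts of genes past 1.5-fold and the medians. Some ratios of genes with fewer UMIs, such as Mal and Ermn in NFOs and OPCs, are also given. Thinning to 500 UMIs left out 23 uninjured barcodes. Barcodes marked by Scrublet (scanpy 1.11.5; 12 uninjured, 3 injured) were kept and removed as an alternative. Other alternatives changed the barcode filter, depth, weight of barcodes, scaling, denominator, gene filter, fold and depth limits, or left out the top barcode. The software was pandas 2.3.3, scipy 1.17.1 and numpy 2.4.6 under Python 3.11.15. No ANOVA over cells was made, because cells of 1 library are not replicates. All 8 genes are named, and of 20 other myelin genes on a list Mag, Mobp and Mbp. Results for some listed genes are not reported here. Sirt2, Enpp6, Gpm6b and Omg were named after their values were seen. Some names in the files had been turned into dates, none of them of the 8 genes. The genes, lists and alternatives were chosen with earlier results of these data known.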

Additional observations from a re-analysis of the deposited data

Results flagged for a closer look

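Mog, Cnp, Opalin and Ermn had injured over uninjured ratios on opposite sides of 1 in NFOs and oligodendrocytes. The share of all genes that did so was not computed, so this is not read as particular to these genes. The difference between the types was not tested, since each condition has 1 library. The injured over uninjured ratio of Mog was 1.87 in NFOs and 0.679 in oligodendrocytes, that of Cnp 2.11 and 0.807, and that of Opalin 4.46 and 0.63. Ermn went the other way, at 0.219 and 1.24. The NFO value of Mog turned to 0.546 in thinned barcodes, that of Opalin rested on 2 barcodes, and that of Ermn on 11 and 9 UMIs. The oligodendrocyte value of Ermn turned to 0.784 in barcodes under 8000 UMIs.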

How the results depend on the processing

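No paired analysis was possible because each condition has 1 library, so no replicate could be left out either. For the 8 genes together and the counts of genes, 37 values stayed within their intervals or within 1.5 times the count and 44 moved. For single genes, 277 values stayed, 112 moved and 11 turned, and the cause was not tested.

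In oligodendrocytes the ratio of injured over uninjured level of the 8 genes together was 0.865 with the stricter filter (at least 500 genes, at most 10% mitochondrial), 0.587 in barcodes thinned to 500 UMIs, 0.592 as mean CPM over barcodes, 0.818 divided by the median of all genes, 0.812 with a total that leaves out mitochondrial and some abundant RNAs, 0.835 without the top barcode, 0.836 at 3000 UMIs or more and 0.869 at 0.5% Malat1 or more. In barcodes under 8000 UMIs, added after seeing the data, it was 0.483. Thinned, 5 genes were at least 1.5-fold lower, with mean CPM 6, with either scaling 3, without the top barcode or at 3000 UMIs or more 2, at 2-fold 0 and under 8000 UMIs 6, and 0 were higher in each. The shares of all tested genes past the fold under these settings are not given here, so the counts cannot be read as particular to the 8. Under 1000 UMIs the ratio was 0.369 with tertiles of each library as limits. At 10000 or more it was 0.817 thinned and 0.829 with tertiles.

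Cldn11 in oligodendrocytes turned to 0.681 thinned, 0.651 as mean CPM, 0.993 and 0.986 under the 2 scalings and 0.582 under 8000 UMIs. Tspan2 turned to 0.76, 0.818 and 0.866 (thinned, mean CPM, under 8000 UMIs) and Ermn to 0.784 under 8000 UMIs. Mog in NFOs turned to 0.546 thinned and 0.674 as mean CPM.

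In NFOs the ratio of the 8 together was 1.53 thinned, 1.37 as mean CPM, 2 divided by the median, 3.95 at 3000 UMIs or more, 2.68 at 0.5% Malat1 or more, 1.91 without the 2 barcodes rich in Opalin and 1.82 under 8000 UMIs. Genes at least 1.5-fold higher were 2 of 2 thinned, 3 of 5 with mean CPM, 3 of 3 at 200 summed UMIs and 3 of 4 under 8000 UMIs. For these counts too, the shares of all tested genes are not given here. In OPCs the mean CPM gave 0.649, beside 0.862.

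NFO over oligodendrocyte in uninjured nerves was 0.207 thinned, 0.234 as mean CPM, 0.0825 at 3000 UMIs or more, 0.12 at 0.5% Malat1 or more and 0.174 under 8000 UMIs. In injured nerves it was 0.352 with the stricter filter, 0.54 thinned, 0.542 as mean CPM, 0.349 without the top barcode, 0.39 at 3000 UMIs or more, 0.311 without the 2 barcodes and 0.657 under 8000 UMIs. Depth limits rare genes in uninjured NFOs, which held 94130 UMIs in 44 barcodes, and in the 17 injured OPCs.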

Other observations

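Mal and Ermn, which parted from Cnp and Cldn11 in injured NFOs, also parted from each other in shallow injured oligodendrocytes. Under 1000 UMIs Mal was at 0.512 of the uninjured level (0.426 to 0.613) and Ermn at 1.17 (0.89 to 1.54). In injured oligodendrocytes with little Malat1, compared with uninjured ones with little Malat1, the ratio was 0.979 for Tspan2 (0.746 to 1.29), 0.635 for Ermn and 0.144 for Aspa (0.064 to 0.295).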
